A study of Mus musculus with 74 samples.

Results

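The vomeronasal type 2 receptor genes were taken as the protein-coding genes on the 19 autosomes whose symbol starts with Vmn2r in GENCODE vM21 (mm10). They numbered 121 of 20807 autosomal protein-coding genes, lay on 8 autosomes, and included 2 genes whose symbols read as pseudogenes (Vmn2r-ps159 and Vmn2r-ps130) but which the annotation lists as protein-coding. For each gene, coverage is the percentage of the gene body, from annotated start to annotated end, that lay under the merged H3K9me3 peaks of a list. The genes were picked by symbol and not by a measured value, though with earlier results of these data known. Peak lists hold no expression values, so the labelled cell types were not checked against markers.

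Vmn2r genes encode G protein-coupled receptors with a long extracellular ligand-binding domain, which sensory neurons of the basal layer of the mouse vomeronasal organ use to detect peptides and proteins such as exocrine gland-secreting peptides and major urinary proteins. Most belong to large tandem families expressed sparsely from neuron to neuron, while the small family C, Vmn2r1 to Vmn2r7, is expressed broadly together with the others. H3K9me3, trimethylated lysine 9 of histone H3, marks heterochromatin and commonly covers tandem gene families and retrotransposons in cells that do not use them.

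H3K9me3 was profiled by ULI-NChIP-seq, in which native chromatin cut with micrococcal nuclease is immunoprecipitated from few cells, in 74 libraries (41 precipitates and 33 inputs). The nuclear donors were cumulus cells (CC), which surround the oocyte. Somatic cell nuclear transfer (SCNT) embryos were examined at 6 h and 14 h post activation (hpa), as 2-cell, 4-cell and 8-cell embryos and morulae, and as blastocysts divided into trophectoderm (TE) and inner cell mass (ICM), beside fertilized zygotes at pronuclear stage 5 (PN5). The authors pooled the libraries of each group and called peaks once, which left 10 peak lists.

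Oocytes and donor cells came from BDF1 (B6D2F1) females, 8 to 10 weeks old per the methods of the study, and the reconstructed oocytes of all 8 SCNT groups were activated with SrCl2 and cytochalasin B. PN5 zygotes came from a C57BL/6 by C57BL/6 mating. The study states that the PN5 data came from an earlier publication, so embryo origin, strain and study cannot be told apart in any comparison with PN5. The labels list between 2 precipitates (ICM, TE and PN5) and 7 (8-cell embryos) per group. For library construction the methods speak of a pair of replicates per stage, and under statistics of a wider range per group. A figure legend of the study gives numbers that differ from the labels for some stages. How many libraries stand behind each list is therefore not certain. With 1 list per group no value has a replicate error and no test between groups was possible. Wilson 95% intervals over genes are given below and cover counting error only, since neighbouring genes are not independent. The lists covered between 134 Mb (PN5) and 255 Mb (CC) of the genome, and values were therefore recomputed with every list trimmed, by the peaks' −log10 q, to the covered length of the shortest list.

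The sequences below show the contrast on which the results turn. Segments that were under peaks in all 10 lists were rich in CG dinucleotides and repeat-masked, and segments under peaks in CC only were mostly not. In each, the CG dinucleotides are in capitals and the strand is the plus strand of GRCm38. The first 3 are the central 200 bases of the longest segments covered in all 10 lists in Vmn2r35 (chr7:7796683-7796882), Vmn2r38 (chr7:9081934-9082133) and Vmn2r46 (chr7:9749250-9749449). The last is the centre of the longest segment covered in CC only, in Vmn2r37 (chr7:9219410-9219609). Vmn2r38 and Vmn2r37 were chosen after their values were seen. The segments hold 4, 9, 9 and 0 CG dinucleotides in that order, and 40.5%, 57.0%, 53.0% and 35.5% GC.
Vmn2r35, all 10 lists: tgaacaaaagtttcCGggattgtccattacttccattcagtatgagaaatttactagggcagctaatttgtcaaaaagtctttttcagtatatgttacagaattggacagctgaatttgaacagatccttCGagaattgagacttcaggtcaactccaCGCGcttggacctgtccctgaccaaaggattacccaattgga
Vmn2r38, all 10 lists: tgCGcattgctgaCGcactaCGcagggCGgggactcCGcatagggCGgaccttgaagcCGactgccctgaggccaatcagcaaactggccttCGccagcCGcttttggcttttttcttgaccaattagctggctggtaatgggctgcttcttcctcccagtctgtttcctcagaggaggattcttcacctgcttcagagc
Vmn2r46, all 10 lists: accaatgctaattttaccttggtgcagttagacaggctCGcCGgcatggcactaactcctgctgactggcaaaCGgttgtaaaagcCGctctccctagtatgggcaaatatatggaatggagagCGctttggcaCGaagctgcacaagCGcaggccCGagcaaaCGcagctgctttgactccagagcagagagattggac
Vmn2r37, CC only: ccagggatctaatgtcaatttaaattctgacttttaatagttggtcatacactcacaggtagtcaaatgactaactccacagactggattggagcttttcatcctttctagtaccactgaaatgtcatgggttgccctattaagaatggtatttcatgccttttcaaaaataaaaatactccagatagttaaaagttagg

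In CC, H3K9me3 peaks covered 40.9% of the length of the Vmn2r gene bodies, against 4.86% of the length of all protein-coding gene bodies. At 6 hpa the same genes were covered over 9.22% of their length and at 14 hpa over 19.9%. From the 2-cell to the 8-cell stage the value lay between 5.98% and 6.40%. It was 10.4% in morulae, 7.99% in ICM, 8.06% in TE and 4.99% in PN5 zygotes, the last beside 4.89% over all genes. The ratio of the Vmn2r value to that of all genes was thus 8.41 in CC and 1.02 in PN5, and in the pronuclear SCNT lists it was 2.24 (6 hpa) and 3.89 (14 hpa).

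In lists trimmed to equal length, peaks covered 16.7% of Vmn2r length in CC and between 4.31% and 7.80% in the other 9 lists. CC remained the highest list, at 6.55 times the value over all genes. The order of 6 hpa and 14 hpa did not survive the trimming: the values were then 7.80% and 7.62%. The higher value at 14 hpa is therefore reported for the lists as deposited only. Trimming gives all lists the same covered length, so it also removes any real difference in total extent between them. The lowest −log10 q kept was 3.26 at 14 hpa, 3.12 in CC, 1.76 at 6 hpa and 1.30 in PN5, so the trimmed lists differ in stringency. Which of the 2 orders holds for H3K9me3 itself was not tested.

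**Figure D1:**
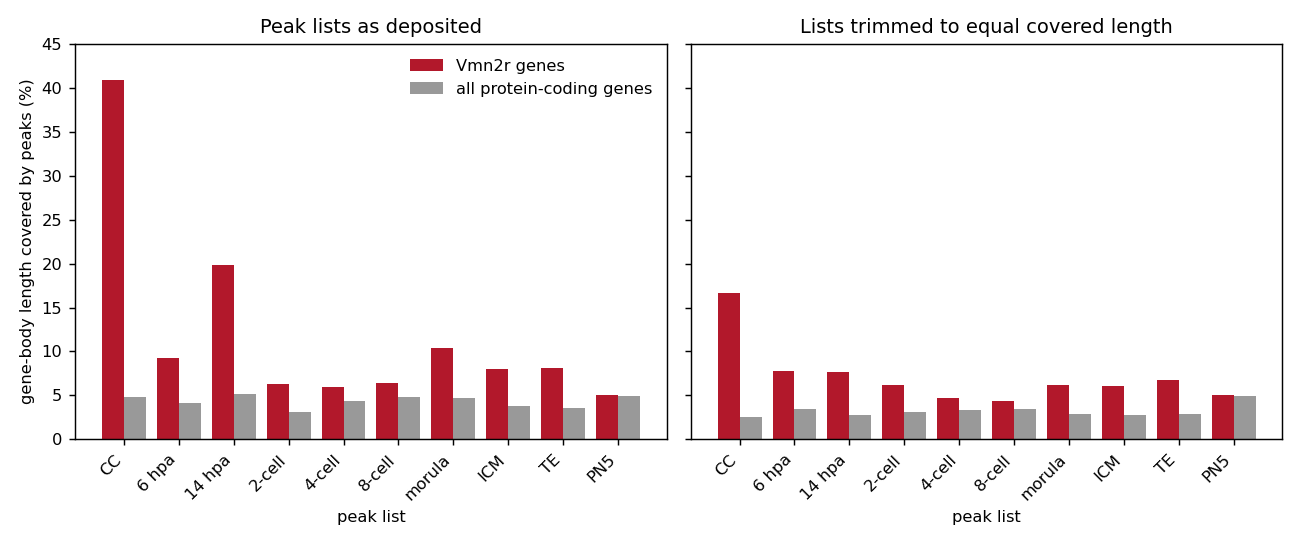
Percentage of gene-body length under H3K9me3 peaks in each of the 10 lists, for the 121 Vmn2r genes (red) and all 20807 autosomal protein-coding genes (grey), with the lists as deposited (left) and trimmed to equal covered length (right). CC is the highest Vmn2r bar in both panels (40.9% and 16.7%), and 14 hpa exceeds 6 hpa only on the left.

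By single genes, 46 of 121 Vmn2r gene bodies (38.0%, interval 29.9 to 46.9) were covered to at least 50% in CC, where 4.11% of all protein-coding genes were. At 6 hpa none was (interval up to 3.08), where 3.29% of all genes were, and at 14 hpa 6 were (4.96%, all genes 2.9%). A single gene, Vmn2r35, was covered to at least 50% in the 2-cell, 4-cell, 8-cell, morula and PN5 lists, where the shares over all genes were 1.62%, 2.08%, 2.09%, 1.52% and 1.99%. In ICM and TE there were 2, Vmn2r35 and Vmn2r-ps159, beside 0.952% and 0.788% of all genes. From the 2-cell stage to TE and in PN5, the Vmn2r shares at this threshold therefore lay near those of all genes. At 6 hpa the share was lower than over all genes, and at 14 hpa it was higher. By length covered, the ratio of Vmn2r to all genes was 2.00 in 2-cell, 1.37 in 4-cell and 1.33 in 8-cell embryos. It was 2.22 in morulae, 2.14 in ICM and 2.25 in TE. At equal list length the share in CC was 4.96%, beside 1.94% over all genes, and at 14 hpa it was 0.826%, beside 1.28%.

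The neighbouring families differed from one another in CC. Of 208 Vmn1r genes, the other large vomeronasal receptor family, 52.4% were covered to at least 50% in CC, 9.62% at 6 hpa, 13.0% at 14 hpa and between 0.481% and 4.33% in the other lists. Of 1128 Olfr genes, the odorant receptors of the main olfactory epithelium, 4.08% were covered to at least 50% in CC, close to the share over all genes. The 113 annotated autosomal Vmn2r pseudogenes, which lie among the coding members, had shares of 46.9% in CC and 15.0% at 14 hpa. The counting intervals in CC were 29.9 to 46.9 for Vmn2r, 45.6 to 59.1 for Vmn1r, 38.0 to 56.1 for the pseudogenes and 3.07 to 5.40 for Olfr. Clustered genes of 1 list are not replicates, so these intervals do not rank the families. Median gene lengths also differed, at 27146 bp for Vmn2r, 6796 bp for Vmn1r, 5994 bp for Olfr and 3124 bp for the pseudogenes. A peak of a given width covers a larger part of a shorter gene, so the shares are not like for like.

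**Figure D2:**
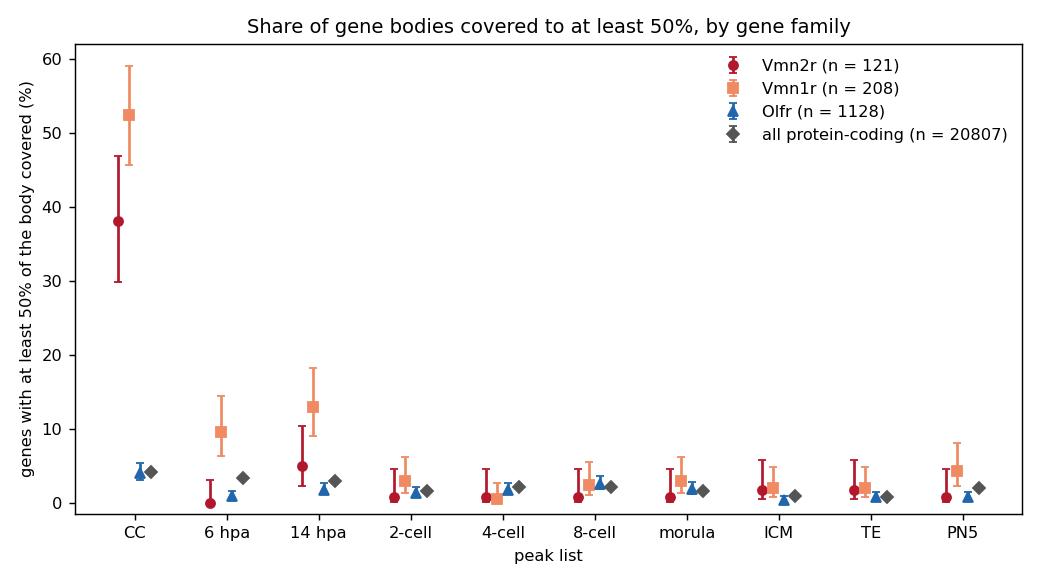
Percentage of genes with at least 50% of the gene body under peaks, per list, for Vmn2r, Vmn1r, Olfr and all protein-coding genes; bars are Wilson 95% intervals over genes (counting error only). Vmn2r and Vmn1r stand at 38.0% and 52.4% in CC, far above Olfr at 4.08%, and Vmn2r is at 0% at 6 hpa.

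The median Vmn2r gene was covered over 40.5% of its body in CC, 5.43% at 6 hpa, 16.1% at 14 hpa, 3.21% in 2-cell, 2.43% in 4-cell and 3.36% in 8-cell embryos, 6.80% in morulae, 3.29% in ICM, 4.09% in TE and 1.11% in PN5. At equal list length the medians were 10.5% in CC, 4.55% at 6 hpa, 1.74% at 14 hpa, with 2.66% in 2-cell embryos, so that 14 hpa then lay below both neighbouring stages. In the lists as deposited, coverage was highest in CC in 95 of the 121 genes. It was higher at 14 hpa than in both neighbouring stages, 6 hpa and 2-cell, in 98 genes, and higher in morulae than in 8-cell embryos in 88. At equal list length CC exceeded all other lists in 59 genes, 14 hpa exceeded 6 hpa in 38 and fell below it in 61. The 2-cell list was then below 14 hpa in 46 genes and above it in 50, against 103 and 5 as deposited. Morulae exceeded 8-cell embryos in 57 and fell below them in 27. Of the genes covered to at least 50% in CC, 38 were below 25% at 6 hpa. In 16 genes coverage was at least 50% in CC and below 25% in each of the other 9 lists. The gene counts of this paragraph were not made over all protein-coding genes. They describe the Vmn2r genes and do not set them apart from other genes.

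**Figure D3:**
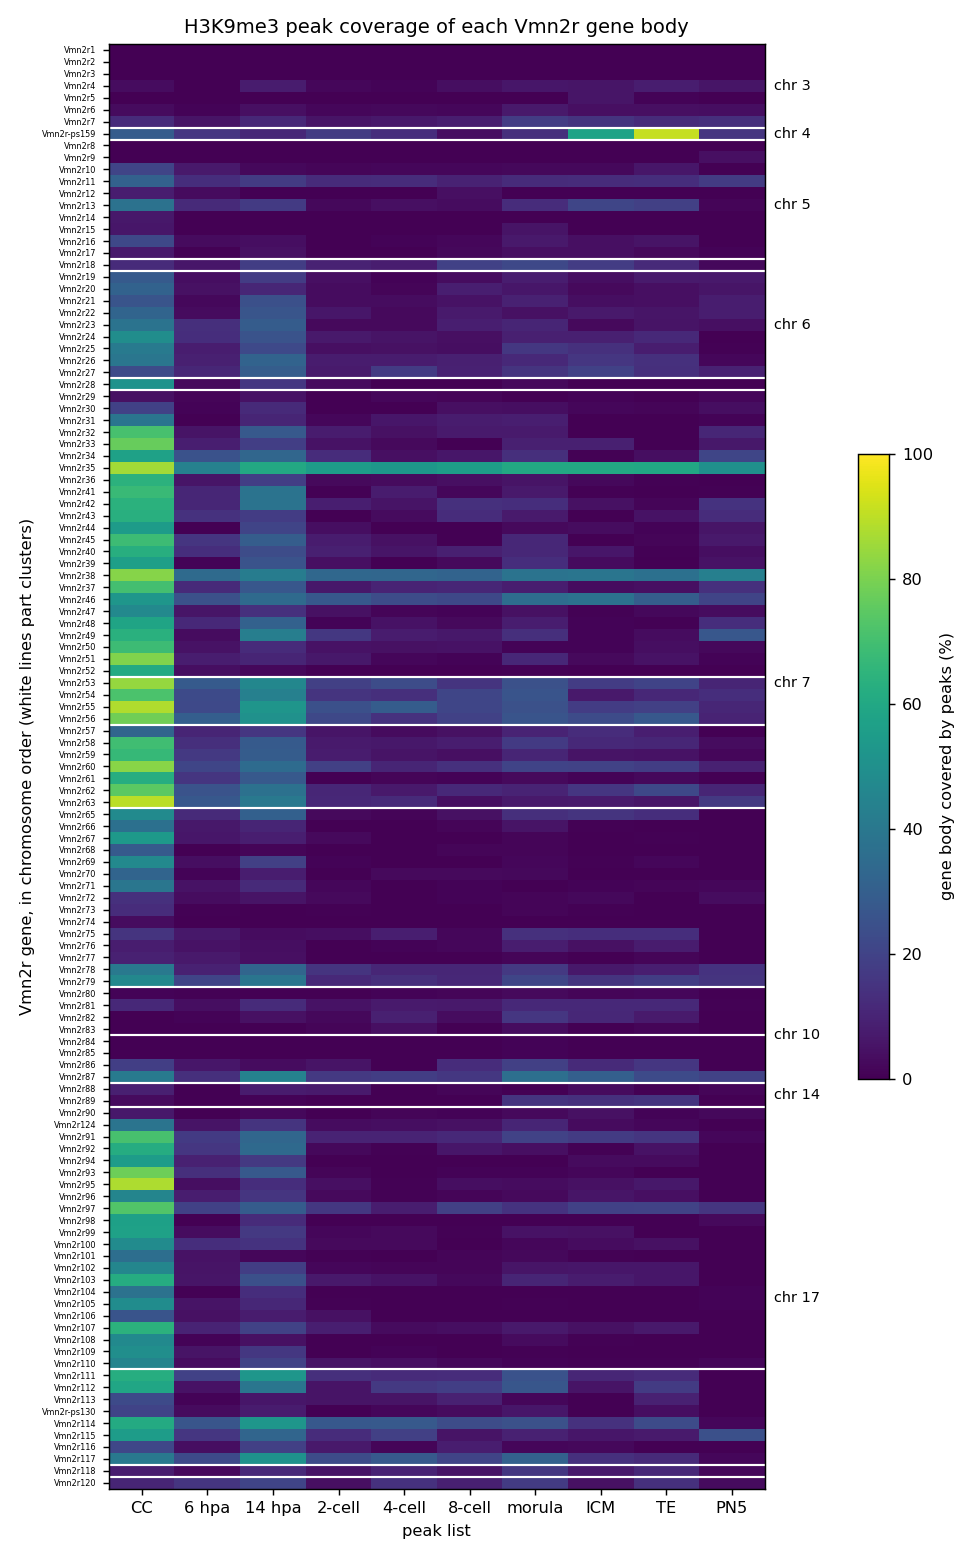
Coverage of each of the 121 Vmn2r gene bodies (rows, in chromosome order, white lines part clusters) by H3K9me3 peaks in the 10 lists (columns), on a colour scale from 0 to 100%. The CC column is bright over chromosomes 7 and 17, chromosomes 3, 10 and 14 are mostly dark apart from Vmn2r87, and Vmn2r35 stays bright in every column.

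Differences between consecutive stages were counted where coverage moved by at least 25 percentage points. Between CC and 6 hpa, 73 Vmn2r genes (60.3%) were lower at 6 hpa and none was higher, where 3.93% of all genes were lower and 4.09% higher. Between 6 hpa and 14 hpa, 9 genes were higher and none lower, beside 2.05% higher and 3.77% lower over all genes. Between 14 hpa and the 2-cell stage, 20 genes were lower and none higher, beside 2.99% and 0.831%. Past this threshold the Vmn2r genes thus moved in 1 direction at each of these steps, whereas all genes together moved in both. Only 8 Vmn2r genes were covered to at least 25% at 6 hpa, so few could fall by 25 points to 14 hpa. By any amount, 2, 11 and 5 genes moved the other way at the 3 steps, with no like counts over all genes. At equal list length 16 genes were lower at 6 hpa, 2 higher at 14 hpa and 1 lower at the 2-cell stage by 25 points. The shares over all genes were then 1.58%, 0.779% and 0.86%.

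No Vmn2r gene moved by 25 points between the 2-cell and the 4-cell stage, where 0.779% of all genes were lower and 1.61% higher, or between the 4-cell and the 8-cell stage (0.904% lower and 0.928% higher). None did between the 8-cell stage and the morula (1.78% lower and 0.865% higher). Compared with morulae, Vmn2r-ps159 alone was higher in ICM and in TE, and no gene was lower. The shares over all genes were 1.78% lower and 0.673% higher for ICM, and 2.07% lower and 0.764% higher for TE. Between ICM and TE, Vmn2r-ps159 was again the single gene that was higher in TE, beside 0.394% of all genes, and none was lower, beside 0.567%. Set against the donor cells, 72 Vmn2r genes were lower in ICM than in CC and 1 was higher, where 5.02% of all genes were lower and 0.985% higher. With trimmed lists 19 were lower in ICM, beside 2.19% of all genes. In PN5 zygotes 19 Vmn2r genes were lower than at 14 hpa and none was higher, beside 3.86% and 3.51% over all genes.

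Vmn2r95 (chr17:18424078-18460905) lost the most between CC and 6 hpa. Its body was covered over 87.5% in CC, 3.52% at 6 hpa, 13.0% at 14 hpa, 4.03% in 2-cell, 0.529% in 4-cell and 3.89% in 8-cell embryos, 3.36% in morulae, 4.55% in ICM, 6.62% in TE and 0% in PN5. The single high value was that of CC, and it was 77.6% with the list trimmed. Vmn2r51 went from 81.2% in CC to 8.08% at 6 hpa, and Vmn2r33 from 76.7% to 8.38%. Both are members of the largest cluster on chromosome 7. The highest value in CC was that of Vmn2r63, at 89.5%, which was covered over 27.7% at 6 hpa and 40.5% at 14 hpa and is named here after its values were seen. Only Vmn2r120 (10.5% and 15.6%) and Vmn2r82 (0% and 1.12%) had higher coverage at 6 hpa than in CC in the lists as deposited. After trimming, 26 genes did and 79 were lower, with no like count made over all genes. In the lists as deposited the 3 largest falls from 6 hpa to 14 hpa were in Vmn2r10 (6.77% and 2.11%), Vmn2r-ps159 (15.8% and 11.3%) and Vmn2r75 (6.47% and 3.13%). In the trimmed lists the largest was in Vmn2r34, from 25.2% to 0.925%, a gene named after its values were seen.

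The largest rises from 6 hpa to 14 hpa were in Vmn2r49 (3.25% and 42.6%), Vmn2r112 (4.98% and 39.3%) and Vmn2r111 (19.2% and 52.4%). All 3 stood near 60% in CC, at 63.6%, 59.4% and 62.4%. With the lists trimmed, Vmn2r49 was still at 3.25% and 33.1%, while Vmn2r111 was at 17.0% and 12% and Vmn2r112 at 0.885% and 7.05%. Bases that were covered at 14 hpa but not at 6 hpa amounted to 486972 over the Vmn2r genes, and 69.8% of them were under peaks in CC as well. Over all protein-coding genes the like share was 35.8%. CC peaks covered 40.9% of Vmn2r length and 4.86% of all gene length, so these 2 shares have unlike base rates. Of the newly covered Vmn2r bases, 13.0% were covered at the 2-cell stage and 23.5% in morulae, beside 26.9% and 32.8% over all genes.

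Several genes of the chromosome 17 cluster that were well covered at 14 hpa were nearly bare in PN5. Vmn2r111 was covered over 52.4% at 14 hpa and 0% in PN5, Vmn2r114 over 52.4% and 1.62%, and Vmn2r117 over 51.1% and 1.60%. In the same cluster Vmn2r115, chosen after its values were seen, was covered over 32.7% at 14 hpa and 24.4% in PN5. Vmn2r-ps159, Vmn2r9 and Vmn2r7 had the largest differences in the other direction, all under 5 points (11.3% and 15.4%, 0% and 3.99%, and 11.3% and 13.6%). After trimming, 2 genes instead of 19 were lower in PN5 by 25 points, beside 1.33% of all genes.

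Vmn2r35 (chr7:7786151-7819867, minus strand) was the gene with the highest coverage outside CC in 8 of the 9 other lists. Its body was covered over 86.1% in CC, 43.8% at 6 hpa, 60.2% at 14 hpa, 55.3% in 2-cell, 52.9% in 4-cell and 55.8% in 8-cell embryos, 60.2% in morulae, 60.3% in ICM, 59.8% in TE and 50.3% in PN5. No list left it under 40%, and in the trimmed lists its values ran from 39.1% to 74.3%. It was the gene that held the most bases under peaks in all 10 lists (12531). Vmn2r38 lies in the same cluster and was covered over 81.8% in CC and between 31.9% and 43.1% in the others. Vmn2r46, also there, was covered over 52.5% in CC and between 20.6% and 37.2% elsewhere. These 3 genes held 54.1% of all Vmn2r bases covered in every list.

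In TE, the exception was Vmn2r-ps159 (chr4:156331103-156339499), the only member on chromosome 4 and, at 8397 bp, the shortest member. Its coverage was 29.1% in CC, 15.8% at 6 hpa, 11.3% at 14 hpa, 17.3% in 2-cell, 13.1% in 4-cell and 3.64% in 8-cell embryos, 13.6% in morulae, 57.9% in ICM, 91.2% in TE and 15.4% in PN5. Only the blastocyst lists were over 50%. In the trimmed lists the values in ICM and TE were 49.1% and 91.2%. Small differences between ICM and TE were found in Vmn2r112 (5.24% and 17.4%) and Vmn2r120 (4.37% and 14.0%), which were higher in TE, and in Vmn2r33 (8.94% and 0%), Vmn2r46 (37.2% and 29.5%) and Vmn2r87 (30.1% and 22.5%), which were higher in ICM.

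The 121 genes fell into 17 clusters when neighbours up to 1 Mb apart were joined. Of these, 11 held at least 3 genes, 5 held a single gene and the largest held 24. The clusters differed widely in CC. Cluster values below are those of the lists as deposited and were not recomputed with trimmed lists. Those on chromosomes 7 and 17 had most of the coverage, and those on chromosomes 3, 10 and 14 had little.

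On chromosome 7 the 24 genes from Vmn2r29 to Vmn2r52 (chr7:7231327-10176573) were covered over 60.3% of their length in CC, and 20 of them to at least 50%. The value was 12.1% at 6 hpa, 25.7% at 14 hpa, between 8.34% and 13.6% from the 2-cell stage to TE and 12% in PN5. Within the cluster, Vmn2r35 had the highest mean over the lists and Vmn2r29, at the edge, the lowest (4.48% in CC). The 4 genes from Vmn2r53 to Vmn2r56 (chr7:12562851-12735004) formed the most covered cluster, with 81.0% in CC. At 6 hpa it was covered over 26.3%, at 14 hpa over 48.3%, and from the 2-cell stage to TE over 17.4% to 25.4%. Its lowest gene in CC, Vmn2r54, was covered over 71.6%, and its highest, Vmn2r55, over 87.9%. In the trimmed CC list they stood at 25.2% and 67.4%. Vmn2r56 was then at 8.24% in CC and 28.9% at 6 hpa. In CC the 7 genes from Vmn2r57 to Vmn2r63 (chr7:41395945-42933822) were covered over 68.4%, with Vmn2r60 at 82.2% and Vmn2r57 at 32.6%. The 15 genes from Vmn2r65 to Vmn2r79 (chr7:84935565-87044941) were less covered, at 31.4% in CC, and ranged from 3.23% in Vmn2r74 to 54.1%. Vmn2r79 had the highest mean there, with 46.6% in CC, 20.4% at 6 hpa and 38.8% at 14 hpa.

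On chromosome 17 the 22 genes from Vmn2r90 to Vmn2r110 (chr17:17703747-20596423) were covered over 53.9% of their length in CC, 7.73% at 6 hpa and 17.8% at 14 hpa. After the 2-cell stage the value never passed 5.10%, and it was 1.32% in PN5. Vmn2r97 had the highest mean, with 73.0% in CC and 29.0% at 14 hpa, and Vmn2r90, the first gene of the cluster, had the lowest, with 6.49% in CC. The 8 genes from Vmn2r111 to Vmn2r117 (chr17:22544504-23479699) were covered over 43.9% in CC and 34.2% at 14 hpa. They retained more than the first cluster through cleavage, between 12.5% and 14.5% from the 2-cell to the 8-cell stage. Vmn2r-ps130 had the lowest mean there, with 20.3% in CC and 7.47% at 14 hpa. Vmn2r116, the receptor of the male pheromone ESP1, lies in this cluster. It was covered over 21.3% in CC, 3.54% at 6 hpa, 19% at 14 hpa, 6.69% in 2-cell, 1.31% in 4-cell and 8.11% in 8-cell embryos, 1.61% in morulae, 2.34% in ICM and 0% in TE and PN5. In the trimmed lists it had no peak in CC or at 14 hpa. The 2 genes that lie apart on the same chromosome, Vmn2r118 and Vmn2r120, stood at 8.19% and 10.5% in CC.

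The 9 genes on chromosome 6, Vmn2r19 to Vmn2r27 (chr6:123308333-124231856), were covered over 34.1% in CC, 7.82% at 6 hpa and 24.4% at 14 hpa. As deposited, single genes ranged from 22.7% in Vmn2r27 to 48.9% in CC, and none reached 50%. In the trimmed CC list they ranged from 0% to 26.6%. Vmn2r20 had the lowest mean over the lists, with 31.6% in CC and 10.9% at 14 hpa. Vmn2r26, a receptor studied for its place in the basal zone of the vomeronasal organ and for responses to peptides presented to the organ, was covered over 39.1% in CC, 8.64% at 6 hpa and 32.0% at 14 hpa. Its coverage was then between 7.52% and 15.8% from the 2-cell stage to TE and 1.57% in PN5. In the trimmed lists it was covered over 2.00% in CC and 19.9% at 14 hpa.

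Family C, the 7 genes Vmn2r1 to Vmn2r7 on chromosome 3 (chr3:64081547-64844765), had little coverage in CC, as did the genes Vmn2r80 to Vmn2r83 and the pair on chromosome 14. They were covered over 6.44% of their length in CC, 2.68% at 6 hpa, 6.55% at 14 hpa, 2.82% in 2-cell, 3.35% in 4-cell and 4.32% in 8-cell embryos, 9.81% in morulae, 8.54% in ICM, 7.10% in TE and 7.42% in PN5. CC was not the highest list for these genes, whose values were close to the 4.86% over all genes in CC. Vmn2r1, Vmn2r2 and Vmn2r3 had no peak in any list, and Vmn2r5 had one only in ICM (5.50%) and TE (1.12%). Most of the covered length was in Vmn2r7, the longest member at 159722 bp, which was covered over 12.3% in CC and 17.9% in morulae. Vmn2r4 was covered over 3.27% in CC and 7.67% at 14 hpa, and Vmn2r6 over 2.75% and 4.26%.

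The 10 genes from Vmn2r8 to Vmn2r17 on chromosome 5 (chr5:108791843-109458459) were covered over 16.5% in CC and 4.34% at 6 hpa. Vmn2r8 had no peak in any list, and its neighbour Vmn2r9 had one in PN5 only. Vmn2r11 was covered over 30.9% in CC and, unlike its neighbours, kept between 9.65% and 17.6% in the 9 other lists. Vmn2r10 went from 20.6% in CC to 6.77% at 6 hpa and 2.11% at 14 hpa. On chromosome 10, the genes from Vmn2r80 to Vmn2r83 stood at 3.68% in CC and 8.75% in morulae, and those from Vmn2r84 to Vmn2r87 at 18.6% and 17.5%. In the former, Vmn2r81 had the highest mean (11.7% in CC and 12.3% at 14 hpa) and Vmn2r80 the lowest (0.867% in CC). In the latter cluster Vmn2r84 had a peak in morulae only (0.841%), while Vmn2r87 was covered over 41.3% in CC, 44.5% at 14 hpa and 36.7% in morulae. The 2 genes on chromosome 14 were covered over 5.55% of their length in CC and 9.10% in ICM.

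The other sequence of these chromosomes was less covered. All peaks together covered 21.7% of chromosome 7 in CC and 8.44% of chromosome 17, against 55.5% and 48.8% of the Vmn2r length on them. Of the other protein-coding genes, 13.1% on chromosome 7 and 1.56% on chromosome 17 were covered to at least 50% in CC. Without the 51 genes of chromosome 7, 20.0% of the other 70 Vmn2r genes were covered to at least 50% in CC, beside the 4.11% over all genes.

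The space between the members of a cluster was covered more than the genes themselves in all 10 lists. In CC it was covered over 52.3% and the gene bodies over 40.9%, at 14 hpa over 28.3% and 19.9%, and in ICM over 14.6% and 7.99%. This order was not particular to these clusters. The autosomes as a whole were also covered more than all protein-coding gene bodies in all 10 lists. The values were 8.86% and 4.86% in CC, 8.63% and 5.11% at 14 hpa, and 6.43% and 3.74% in ICM. Within genes, coding sequence, other exonic sequence and introns were alike in CC, at 42.0%, 39.5% and 41.1%. In ICM they were 3.90%, 6.32% and 8.85%, and the coding value was then close to the 3.88% over the coding sequence of all genes.

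Coverage dipped at the gene start. In CC, 52.7% of the bases from 20 kb to 1 kb before the start were under peaks, 28.8% of those within 1 kb of it and 40.1% of those from 1 kb to 20 kb after it. At 14 hpa the 3 values were 29.7%, 7.84% and 18.1%. In morulae they were 17.7%, 0.902% and 8.88%. The lowest bin in CC was the second kilobase after the start, with 19.1%.

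**Figure D4:**
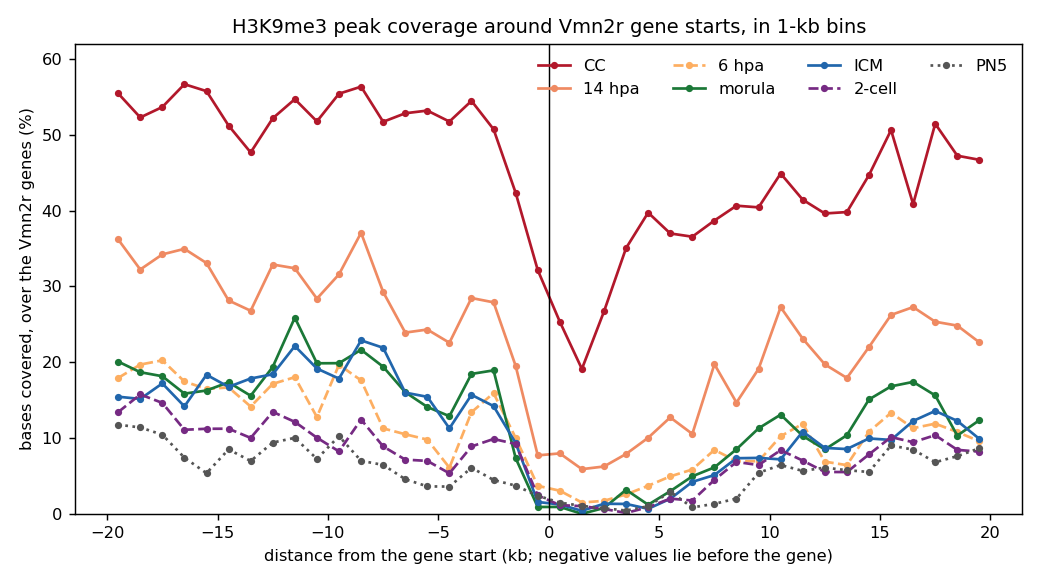
Percentage of bases under peaks in 1-kb bins from 20 kb before to 20 kb after the annotated start of the 121 Vmn2r genes, for 7 of the 10 lists. The lines of CC and 14 hpa fall towards the start and rise again within the gene (in CC 52.7% before, 28.8% within 1 kb and 40.1% after), and the other lines come close to 0 just after the start.

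A promoter, 1 kb on each side of the gene start, was called marked where at least 50% of it lay under 1 peak or at least 50% of a peak lay within it. In CC 53 Vmn2r promoters (43.8%, interval 35.3 to 52.7) were marked, where 7.85% of all protein-coding promoters were. At 6 hpa 15 (12.4%) were marked, fewer than the 29.9% over all genes, the highest share of all promoters in any list. At 14 hpa it was 25 (20.7%), beside 8.59%. In the 2-cell, 4-cell and 8-cell lists 6, 8 and 7 were marked, beside 6.39%, 6.1% and 6.8% over all genes. In morulae it was 6, beside 5.11%, in ICM 3, beside 4%, in TE 4, beside 4.13%, and in PN5 8, beside 9.26%. The 3 in ICM were Vmn2r5, Vmn2r69 and Vmn2r-ps159, and TE had these and Vmn2r115; Vmn2r69 and Vmn2r115 were chosen after their values were seen. From the 2-cell stage on, the Vmn2r shares were thus near those of all promoters. After trimming, 9.09% of Vmn2r promoters were marked in CC, beside 3.06% of all promoters, and 3.31% at 14 hpa, beside 2.88%. Where the merged peaks had to cover 50% of the promoter, 26.4% were marked in CC, beside 3.75%.

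RefSeq promoter sequences (250 bases before to 50 bases after the start, GRCm38.p6) were found for 114 of the 121 genes. They held few CG dinucleotides, a median of 1 and a range of 0 to 4, against a median of 7 over all 32851 promoters in that table. At most 3 CG were found in 94.7% of the Vmn2r promoters and in 31.4% of all promoters, on either strand alike since the CG motif is its own complement. The median was 1 both for genes whose promoter was marked in CC and for those whose promoter was not. Promoters are shown for a gene that lost its coverage, a receptor of known ligand and a gene with no peak in its body, CG in capitals, on the plus strand: that of Vmn2r95 (chr17:18423854-18424153), marked in CC only, that of Vmn2r116 (chr17:23384553-23384852), marked in CC and at 6 hpa and 14 hpa, and that of Vmn2r1 (chr3:64081392-64081691), marked in PN5 only by a peak outside the gene body.
Vmn2r95: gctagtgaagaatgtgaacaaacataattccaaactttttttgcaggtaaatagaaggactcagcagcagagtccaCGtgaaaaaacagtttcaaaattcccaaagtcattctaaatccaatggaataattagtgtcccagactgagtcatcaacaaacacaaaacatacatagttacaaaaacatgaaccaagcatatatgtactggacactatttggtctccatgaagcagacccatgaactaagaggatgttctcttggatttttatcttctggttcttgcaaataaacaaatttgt
Vmn2r116: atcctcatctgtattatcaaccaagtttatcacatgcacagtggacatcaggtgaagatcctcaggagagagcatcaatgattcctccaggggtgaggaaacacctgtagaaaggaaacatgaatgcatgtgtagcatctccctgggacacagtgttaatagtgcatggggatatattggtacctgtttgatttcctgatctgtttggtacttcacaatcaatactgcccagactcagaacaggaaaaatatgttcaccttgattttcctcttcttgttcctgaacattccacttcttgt
Vmn2r1: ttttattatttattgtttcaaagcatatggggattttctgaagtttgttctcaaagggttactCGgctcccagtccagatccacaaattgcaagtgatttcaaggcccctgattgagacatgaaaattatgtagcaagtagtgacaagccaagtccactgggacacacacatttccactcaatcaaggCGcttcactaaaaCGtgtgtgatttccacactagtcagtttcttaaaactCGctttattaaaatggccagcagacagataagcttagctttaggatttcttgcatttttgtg

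The Vmn2r genes are poor in GC. Their median GC content was 36.2% (range 32.9 to 41.8), against 45.4% over all protein-coding genes. Repeat-masked sequence, written in lower case in the reference, made up a median of 40.1% of a Vmn2r gene and 22.4% of a protein-coding gene. Masked bases of Vmn2r genes were covered over 47.7% in CC and unmasked bases over 35.2%. The gap was wider, as a ratio, in later stages. At 14 hpa the values were 27.0% and 13.9%, in morulae 16.3% and 5.51% and in ICM 13.8% and 3.19%. Over all protein-coding genes masked bases were also covered more, with 9.27% and 3.23% in CC and 7.68% and 2.28% in ICM. Of the Vmn2r bases covered in CC, 22.6% of the masked and 14.7% of the unmasked were covered at 6 hpa, and 22.0% and 6.20% were in ICM. Over all genes these shares were 36.1% and 42.2% at 6 hpa, the other way round, and 44.7% and 24.2% in ICM.

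Windows of 1 kb were then sorted by GC content, a window being marked where peaks covered at least 50% of it. Windows below 40% GC made up 73.0% of the 3687 Vmn2r windows and 38.2% of all autosomal windows. In CC 32.6% of such Vmn2r windows were marked, against 6.54% of all autosomal windows of the class. At 6 hpa 96.1% of the 878 marked in CC were no longer marked, beside 93.7% for all autosomal windows below 40% GC. Of the Vmn2r windows from 40% to 45% GC, 75.3% were no longer marked at 6 hpa, beside 70.5%. Of those with at least 45% GC it was 31.4%, beside 28.5%. At this step the shares lost lay few percentage points apart between Vmn2r and all autosomal windows of the same GC class. The classes themselves stood far apart, and over all classes the shares were 83.7% and 63.7%. At equal list length the 3 Vmn2r shares were 96.0%, 67.5% and 24.5%, beside 90.9%, 63.3% and 22.8%. Below 40% GC, 12 of 302 Vmn2r windows were then still marked, beside 2433 of 26600 over all autosomal windows.

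In percentage points lost, the low-GC windows of the Vmn2r genes and of the genome stood further apart in some of the later lists. At 14 hpa 81.7% of the low-GC Vmn2r windows marked in CC were unmarked, beside 67.8% over all autosomal windows of the class. The values were 94.6% and 82.5% in morulae, 94.8% and 78.2% in ICM and 95.2% and 83.2% in TE. In the 2-cell, 4-cell, 8-cell and PN5 lists they were close, at 98.4% and 95.3%, 98.4% and 94.3%, 98.9% and 94.6%, and 97.7% and 95.6%. In windows of at least 45% GC the 2 sets stayed closer, with 29.3% and 38.1% in morulae and 43.6% and 46.2% in ICM. The 185 Vmn2r windows of this class were the most often marked in every list, from 75.7% in CC and 75.1% at 14 hpa down to 35.7% in PN5, against 8.89% to 13.1% of all autosomal windows of the class.

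**Figure D5:**
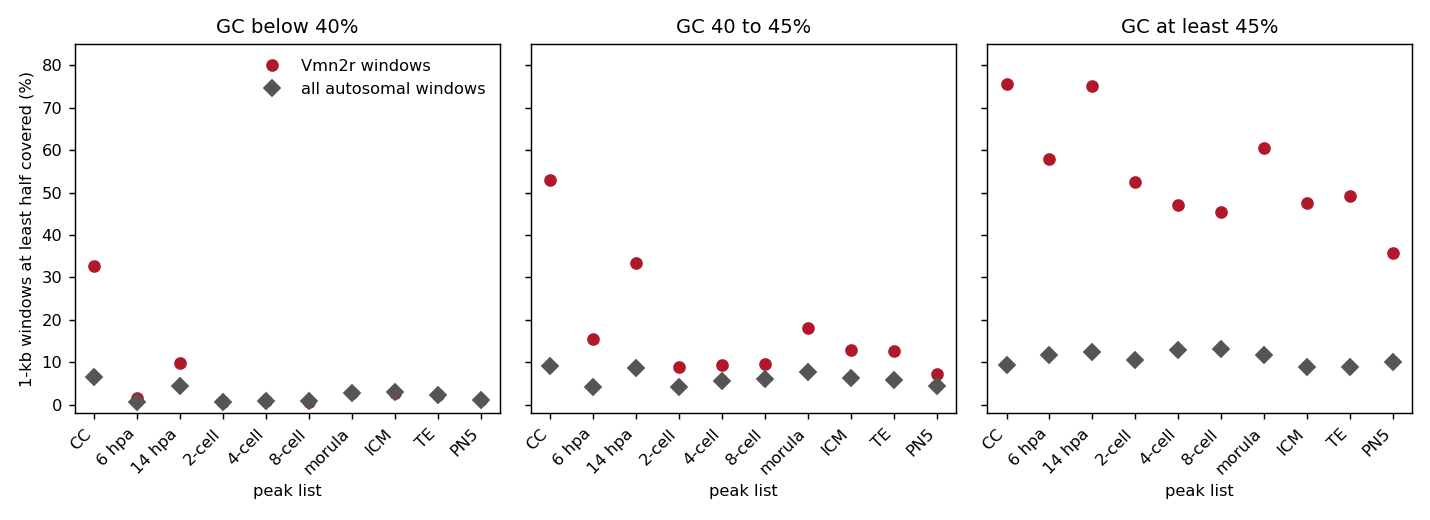
Percentage of 1-kb windows that were at least 50% covered by peaks in each list, in 3 classes of GC content, for windows in Vmn2r genes (red circles) and all autosomal windows (grey diamonds). Below 40% GC the Vmn2r value drops from 32.6% in CC to 1.67% at 6 hpa; at 45% GC or more it is 57.8% at 6 hpa and at least 35.7% in every list.

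Across the 121 genes, coverage in CC was almost unrelated to GC content of the gene (Spearman rho 0.10, Pearson r 0.16), whereas mean coverage from the 2-cell stage to TE was higher in genes of higher GC content (rho 0.64, r 0.57). For CG dinucleotides per kb, rho was 0.08 in CC and 0.59 later, and for the masked share it was 0.21 and 0.55. These are descriptions over genes that share lists and clusters. Between them, the 10 lists had 48 segments covered in every list, in 26 genes, with 43081 bases in all. Their sequence was 49.1% GC, 92.8% masked and held 27.9 CG per kb, and 6.02% of it was exonic. The 1004 segments covered in CC only lay in 107 genes and amounted to 759637 bases, with 35.7% GC, 43.8% masked sequence, 3.74 CG per kb and 26.0% exonic sequence. The sequences printed first come from these 2 kinds of segment.

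The segments kept in every list resembled one another. Of 29 such segments of at least 300 bases, in 19 genes, 27 aligned with a segment in another Vmn2r gene. The longest, 5004 bp in Vmn2r35 (chr7:7794281-7799284), matched one in Vmn2r46 at 91.0% identity over 2373 bases. That of Vmn2r38 (chr7:9080621-9083446) matched the same segment of Vmn2r46 at 96.5% over 2420 bases, and that of Vmn2r60 (chr7:42169873-42172867) at 95.5% over 2476 bases. Family members outside chromosome 7 shared in this too: a 1266-bp segment of Vmn2r7 on chromosome 3 matched one in Vmn2r58, on chromosome 7, at 94.8% over 727 bases. No repeat names were used here, and the family of these repeats was not examined.

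The coding sequences are also close to each other. Of 121, 109 aligned to another member over at least 80% of their length, at a median identity of 94.0%, and 50 had a partner of at least 95%. Genes with such a partner had a median coverage of 53.3% in CC and the other 71 of 37.1%. Without the 50 genes that have a partner of at least 95%, 26.8% were covered to at least 50% in CC. The sources state no filter on mapping quality, and how reads were shared between copies was not tested.

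Peaks over Vmn2r genes were longer in CC than later, but not higher. The lists held 792 peaks that touched a Vmn2r gene in CC, 449 at 6 hpa, 620 at 14 hpa and between 196 and 429 in the other lists. Their median width was 1305 bp in CC, 550 bp at 6 hpa and 808 bp at 14 hpa, beside 738, 563 and 866 bp for all autosomal peaks. In CC 87 of them reached 5 kb and the longest was 44661 bp, while at 6 hpa 3 did. The median fold enrichment over input of these peaks, a ratio given by the authors' peak caller, was 2.73 in CC, 2.78 at 6 hpa and 2.64 at 14 hpa, beside 2.71, 2.73 and 2.73 over all autosomal peaks.

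The wider vomeronasal system was followed through lists of ligand, receptor, partner and signalling genes. Among the ligands, none of 15 Esp genes, which encode exocrine gland-secreting peptides, was covered to at least 50% in any list, and 11 had no peak in CC. Of 22 Mup genes, which encode major urinary proteins and lie in a tandem cluster, 12 were covered to at least 50% in CC, none at 6 hpa, 5 at 14 hpa, none at the 2-cell stage, 2 in 4-cell and 3 in 8-cell embryos, 4 in morulae, 6 in ICM, 2 in TE and none in PN5. Over all genes the shares were 4.11% in CC, 3.29% at 6 hpa, 2.9% at 14 hpa, then 0.952% in ICM. The median coverage of the Mup genes was 54.6% in CC, 9.09% at 6 hpa, 32.8% at 14 hpa, 38.9% in ICM and 0% in PN5, while the median over all genes was 0% in CC. Of the 5 formyl peptide receptor genes listed, also expressed in vomeronasal neurons, Fpr-rs3, Fpr-rs4 and Fpr-rs6 were covered over 100% in CC. At 6 hpa the 3 stood at 65.6%, 0% and 15.2%, and at 14 hpa at 0%, 0% and 38.5%. In the remaining lists Fpr-rs3 and Fpr-rs6 had no peak, while Fpr-rs4 was covered over 90.2% in 2-cell and 21.2% in 8-cell embryos.

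Genes that act with the receptors were also examined. These lists are short, and with 4.11% of all genes covered to at least 50% in CC a count of 0 among them lies near the share over all genes. None of the 9 H2-M genes, whose class Ib MHC proteins accompany some type 2 receptors, had a peak in CC. H2-M1 was covered over 65.5% in 4-cell and 83.9% in 8-cell embryos and over 71.4% in PN5, and H2-M11 over 72.2% in morulae. Of 9 transduction genes none reached 50% in CC or in any SCNT list, and 1 did in PN5, Omp at 82.5%. Trpc2, the cation channel of vomeronasal neurons, had no peak in CC, was covered over 8.84% at 6 hpa and over 44.2% in PN5. Gnao1, the G protein alpha subunit of the basal neurons, was covered over 1.40% in CC, 18.2% in 4-cell embryos and 28.8% in PN5. None of 6 regulator genes reached 50% in any list, Bcl11b and Tfap2e among them, which are needed for the identity of these neurons and stood at 3.21% and 3.41% in CC.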

How the data were processed

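H3K9me3 was measured by ULI-NChIP-seq in 74 libraries that the labels place in 20 groups, a precipitate and an input group for each of 10 stages. Per the methods of the study, the authors trimmed reads with cutadapt (version 1.16, from the submitters' processing notes), aligned them to mm10 with BWA, merged the libraries of a group with SAMtools, removed duplicates and drew the same number of reads per group with Picard, and called broad peaks over input with MACS2. Versions other than that of cutadapt are not given in the sources used here, nor is a filter on mapping quality. The deposited values of a peak are its fold enrichment over input, a ratio, and the −log10 of its q-value, as the authors' peak caller wrote them. The deposited score and p-value columns were not used. Read depth per list is not in the peak lists.

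Overlapping peaks of a list were merged, and coverage was computed over GENCODE vM21 gene bodies, exons, promoters (1 kb on each side of the start) and 1-kb windows with Python 3.11.15 and NumPy 2.4.6. The coverage script was tested on simulated peaks. Neighbours up to 1 Mb apart formed a cluster. Similarity was measured with BLAST+ 2.17.0 at an e-value of 1e-10. Promoter sequences were those of RefSeq. Genes were named where they were Vmn2r1 to Vmn2r7, had a known ligand class (Vmn2r26 and Vmn2r116), had the highest or lowest mean of a cluster of at least 3 genes, were covered to at least 50% in all 10 lists (none was), were among the 3 with the largest difference in each direction between CC and 6 hpa, 6 hpa and 14 hpa, ICM and TE or 14 hpa and PN5, or had no peak in the most lists (at most 5). Others were named after their values were seen. The genes and the lists of related genes were chosen with earlier results of these data known. Each group has 1 pooled list, so no test between groups was run. Alternatives were a trimming of every list to the covered length of the shortest, a minimum −log10 q of 2, other thresholds and promoter widths, and leaving out chromosome 7 or near-identical copies.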

Additional observations from a re-analysis of the deposited data

How the results depend on the processing

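Of 199 values recomputed under another setting, 132 stayed within the counting interval or within 1.5 times the count, and 67 moved. A count of 0 in both settings was scored as unchanged, and many of the counts were 0. Stricter thresholds and the removal of genes can only lower a count. The tally is therefore not a measure of how stable the results are. Whether a value turned into its opposite was not scored. At 14 hpa the share covered to at least 50% was above that of all genes as deposited (4.96% and 2.9%). After trimming it was below (0.826% and 1.28%). The order of the 6 hpa, 14 hpa and 2-cell lists turned with trimming. As deposited, 14 hpa was above 6 hpa in 98 genes and below it in 11, and after trimming in 38 and 61. The 2-cell list was below 14 hpa in 103 genes and above it in 5, and after trimming in 46 and 50. These orders were not counted over all genes. For the values that moved, the cause was not tested. Each group has 1 list. No paired analysis was possible because the authors pooled the libraries of a group before they called peaks. Leaving out a replicate was likewise not possible. With every list trimmed to the length of the shortest, the share of Vmn2r genes covered to at least 50% was 4.96% in CC, 0.826% at 14 hpa and 0% in 4-cell embryos, and the share of marked promoters was 9.09% in CC, 3.31% at 14 hpa and in 4-cell embryos, 1.65% in morulae and 0% in ICM. Counts of genes that differed by 25 points were then 16 lower at 6 hpa than in CC, 2 higher at 14 hpa than at 6 hpa, 1 lower at the 2-cell stage than at 14 hpa, 2 lower in PN5 than at 14 hpa and 19 lower in ICM than in CC. Over all genes the shares were 1.58%, 0.779%, 0.86%, 1.33% and 2.19% in that order. Trimming was applied to the length values after the data were seen, as was the removal of near-identical copies.

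At a minimum of 75% of the gene body the share was 9.09% in CC and 0% at 14 hpa and in 2-cell, 4-cell and 8-cell embryos, morulae, ICM and PN5. Without chromosome 7 it was 20.0% in CC and 0% in the 2-cell, 4-cell, 8-cell, morula and PN5 lists, and without near-identical copies it was 26.8% in CC and 0% in the same 5 lists. With a minimum −log10 q of 2 it was 0% in 4-cell embryos and PN5, and over exons 0% in PN5. Where merged peaks had to cover 50% of a promoter, the marked share was 26.4% in CC, 1.65% at 6 hpa, 4.96% at 14 hpa, 0.826% in 2-cell and 4-cell embryos, TE and PN5, and 0% in 8-cell embryos and morulae. Without chromosome 7 it was 31.4% in CC. With a minimum −log10 q of 2 it was 4.13% at 6 hpa, 12.4% at 14 hpa, 3.31% in 4-cell embryos and 2.48% in PN5. With 500 bases on each side it was 0.826% in ICM and TE and 3.31% in PN5.

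At 50 points, 28 genes were lower at 6 hpa than in CC, 41 lower in ICM than in CC and 2 lower in PN5 than at 14 hpa. At that threshold 0 were higher at 14 hpa than at 6 hpa, lower at the 2-cell stage than at 14 hpa, higher in ICM than in morulae or CC, or higher in TE than in ICM. Without chromosome 7 the counts at 25 points were 31 lower at 6 hpa than in CC, 5 higher at 14 hpa than at 6 hpa, 7 lower at the 2-cell stage than at 14 hpa, 9 lower in PN5 than at 14 hpa and 31 lower in ICM than in CC. With a minimum −log10 q of 2, 11 were lower at the 2-cell stage than at 14 hpa. The counts of this paragraph were not made over all genes. Read numbers were made equal between groups by the authors, the peak lists hold no read counts, and a base without a peak may still carry H3K9me3 below the calling threshold.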

Other observations

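Vmn2r121 (chrX:124124961-124135952) is the single X-linked member and was left out of all counts above. Its gene body was covered over 26.1% in CC. After transfer it was covered over 17.4% at 6 hpa, then 16.9% at 14 hpa, 7.70% at the 2-cell, 13.9% at the 4-cell and 3.75% at the 8-cell stage, 14.4% in morulae, 23.1% in ICM, 32.8% in TE and 10.3% in PN5. TE was the highest list for this gene, as it was for the autosomal Vmn2r-ps159.

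Vmn2r28 and Vmn2r18, which lie alone and were named after their values were seen, differed in their course. Vmn2r28 on chromosome 7 was covered over 51.0% in CC, and over 5.06% with the list trimmed. At 6 hpa it was covered over 2.57% and at 14 hpa over 16.1%, and it had no peak in the 4-cell, 8-cell, ICM, TE and PN5 lists. Vmn2r18 on chromosome 5 was covered over 12.5% in CC, 18.3% at 14 hpa, 19.4% in 8-cell embryos and 21.6% in morulae.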
